A study of Mus musculus with 4 samples.

Results

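Type I interferon signaling was followed here through 9 genes: the ligand Ifnb1, the receptor chains Ifnar1 and Ifnar2, the interferon regulatory factors Irf1, Irf3, Irf5, Irf7 and Irf9, and the signal transducer Stat2. They were chosen by symbol from the gene list of the deposited table, which holds 19737 genes, and all 9 were found. The data were single-cell RNA-seq counts (unique molecular identifiers, UMIs) of 74758 sorted brain myeloid cells from 20 mice. Cells were assigned to mice, groups and clusters by the deposited annotation.

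The experiment set TREM2 antibodies against an isotype control in mice with and without amyloid. There were 5 groups of 4 mice. All mice were homozygous for TfRmu/hu, a knock-in that places the apical domain of the human transferrin receptor in the mouse receptor, so no group had a fully murine transferrin receptor. WT;TfRmu/hu mice received ATV:ISO, a control antibody that carries the transferrin receptor-binding Fc (the antibody transport vehicle, ATV), or ATV:4D9, in which that Fc is joined to the TREM2 antibody 4D9. AppSAA;TfRmu/hu mice, which are also homozygous for a mutated App knock-in that leads to amyloid deposition, received ATV:ISO, 4D9 with no transferrin receptor binding, or ATV:4D9. Each mouse was given 10 mg/kg intravenously and studied 24 hours later, so each group holds a single dose and a single time. ATV-DNP02, the name in the annotation, was read as ATV:ISO. The 20 mice were processed as 4 pools with 1 mouse of every group in each, and mice are numbered here by pool. In the annotation 19 mice were male, and mouse 4 of the WT ATV:ISO group was recorded as female.

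Type I interferons bind a receptor built from IFNAR1 and IFNAR2. Kinases on the receptor phosphorylate STAT2, which together with IRF9 enters the complex ISGF3, and this complex switches on interferon-stimulated genes, among them Irf7. Upstream of the ligand, IRF3 and IRF7 are activated by nucleic acid and pattern recognition receptors and drive transcription of Ifnb1 and other type I interferons. IRF5 acts mainly downstream of Toll-like receptors, and IRF1 is induced by both type I and type II interferons. Microglia express the receptor at rest, and a population of interferon-responsive microglia is known from aging, amyloid and infection.

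The promoters of 3 of the members with motif matches are shown, and no result below rests on them. Each is the 250 bases before the RefSeq transcription start (GRCm38.p6), 5′ to 3′ on the gene's strand, with capitals marking motif matches. The Ifnb1 window is chr4:88522795-88523044 on the minus strand, the Stat2 window is chr10:128270248-128270497 on the plus strand and the Irf1 window is chr11:53769764-53770013 on the plus strand.
Ifnb1: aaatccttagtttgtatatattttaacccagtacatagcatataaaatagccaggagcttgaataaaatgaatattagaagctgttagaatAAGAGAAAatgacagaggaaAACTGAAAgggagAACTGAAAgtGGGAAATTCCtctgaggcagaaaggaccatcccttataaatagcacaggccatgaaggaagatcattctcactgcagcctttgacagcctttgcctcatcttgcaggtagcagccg
Stat2: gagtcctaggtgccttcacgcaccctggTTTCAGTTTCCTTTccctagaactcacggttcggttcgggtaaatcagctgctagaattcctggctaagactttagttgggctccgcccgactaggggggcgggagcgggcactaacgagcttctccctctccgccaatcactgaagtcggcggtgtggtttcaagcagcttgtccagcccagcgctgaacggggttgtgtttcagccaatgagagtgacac
Irf1: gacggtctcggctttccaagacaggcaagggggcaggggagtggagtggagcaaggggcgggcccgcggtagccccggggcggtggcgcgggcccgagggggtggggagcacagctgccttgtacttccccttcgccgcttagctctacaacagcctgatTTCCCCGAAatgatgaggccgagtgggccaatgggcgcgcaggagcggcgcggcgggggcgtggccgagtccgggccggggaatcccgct
Both strands of these windows were searched for 4 motifs. The core of the interferon-stimulated response element bound by ISGF3 (GAAA, any 2 bases, GAAA) was present in 2.98% of 32851 RefSeq promoter windows of the same length. The shorter interferon regulatory factor core AANNGAAA, which lies inside every match of the first motif, was present in 21.3%. TTCNNNGAA, the gamma-activated sequence bound by STAT dimers, was present in 7.02%, and a form of the NF-kB site (GGGA, any 2 bases, TTCC) in 1.21%. The Ifnb1 window held 3 matches of AANNGAAA and, 116 bases before the start, a single match of the NF-kB form. The Stat2 window held the only match of the response element core among the members, 222 bases before the start, and 2 AANNGAAA matches, at 222 and 216 bases, that overlap it. The Irf1 window held a TTCNNNGAA match 90 bases before the start, and the Ifnar2 window held another 214 bases before its start. RefSeq windows were found for all 9 members, and none of the 4 motifs was present in those of Ifnar1, Irf3, Irf5, Irf7 and Irf9, including the alternative starts listed for Irf1 and Irf9. These are letter matches in short windows and say nothing on binding.

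In the GENCODE annotation (GRCm38), Ifnb1 lies at chr4:88522025-88522774 on the minus strand, Irf7 at chr7:141262706-141266481 on the minus strand and Stat2 at chr10:128270559-128292849 on the plus strand. Ifnb1, Ifnar1 and Stat2 overlap no other annotated gene. Irf9 overlaps Rnf31 on the same strand, Ifnar2 overlaps Gm21970 on the same strand, and Irf1, Irf3, Irf5 and Irf7 overlap a gene on the opposite strand (Gm17334, Bcl2l12, Tnpo3 and Phrf1). How reads in these overlaps were shared was not given in the sources used here.

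Depth differed between groups and matters for every level below. Mice contributed 2193 to 6126 cells and 17150296 to 102446549 UMIs. The median number of UMIs per cell, averaged over mice, was 7566 in WT ATV:ISO and 15338 in WT ATV:4D9, and it was 9339 in AppSAA ATV:ISO, 9741 in AppSAA 4D9 and 15523 in AppSAA ATV:4D9. Levels are therefore given as counts per 1000000 (CPM), the UMIs of a gene summed over a mouse relative to the TMM-scaled total of that mouse, and mean UMIs per cell are given where that scale changes a direction. With the sums of a mouse, more RNA per cell and more cells with the gene cannot be told apart. Fold changes, their standard errors (SE) and p-values are from edgeR's quasi-likelihood test on the mouse sums, with Benjamini-Hochberg adjustment over all 14058 genes tested, and all 9 members passed the filter on low counts. A gene is called when its adjusted p is under 0.05. Every member was also tested with the pool as a block, which changed calls only by adding them, and the added calls are given beside the results.

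The cells carried microglial markers in every mouse, with P2ry12 at 543 to 2678 CPM, Tmem119 at 619 to 1327, Cx3cr1 at 2244 to 4919, Csf1r at 1702 to 2879 and C1qa at 7694 to 12957 CPM. The defining markers of T and NK cells were at most 0.310 CPM in any mouse, and those of neurons at most 0.833 CPM. Other markers were higher, up to 9.93 and 15.6 CPM for Mrc1 and Pf4 of border macrophages, 11.4 CPM for S100a9 of neutrophils, 29.0 CPM for Cd79b of B cells, whose Cd79a and Ms4a1 were at most 0.500 and 0.196 CPM, and 37.2 CPM for Mbp of oligodendrocytes. Of the plasmacytoid dendritic cell list, a cell type known for type I interferon, Ccr9 and Ly6d did not exceed 0.379 and 0.0975 CPM. Of its 4 listed genes 3 were in the gene list, and the remaining gene found, Cox6a2, was at 12.3 to 181 CPM. The summed list, nearly all Cox6a2, was at 12.3 to 30.6 CPM in WT ATV:ISO and 49.5 to 65.6 CPM in WT ATV:4D9, without overlap, and at 106 to 181 CPM in AppSAA ATV:ISO and 81.8 to 132 CPM in AppSAA ATV:4D9. A UMI of this list was present in 54.6% of cells with Ifnb1 and in 36.7% of all cells, which were not matched for depth. The part of this list in the results was not tested. The summed endothelial list moved with treatment, from 17.3 to 22.4 CPM in WT ATV:ISO to 9.88 to 12.3 CPM in WT ATV:4D9, and from 39.9 to 50.9 CPM in AppSAA ATV:ISO to 15.5 to 27.3 CPM in AppSAA ATV:4D9. Nearly all of this sum was Flt1 (up to 42.3 CPM) and Pecam1 (up to 18.2 CPM), and Cldn5 was at most 0.413 CPM in any mouse. The summed oligodendrocyte list was at 26.4 to 35.1 CPM in WT ATV:ISO and 15.3 to 25.3 CPM in WT ATV:4D9, and at 32.9 to 43.4 CPM in AppSAA ATV:ISO and 18.1 to 39.9 CPM in AppSAA ATV:4D9, which overlapped. Of the oligodendrocyte list Mog was at most 0.398 CPM, beside Mbp at up to 37.2 CPM. Whether these sums came from such cells, and their part in the results, was not tested.

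Interferon transcripts were seen. Ifnb1, which encodes interferon beta, was counted in 2477 UMIs from 639 cells and in 19 of 20 mice. Counts of Ifng and Ifnz were near the limit of detection. Ifng, the type II interferon, had 10 UMIs in 10 cells, and Ifnz, a mouse type I interferon gene, had 15 UMIs in 15 cells, never more than 1 UMI in a cell. The gene list was searched for the symbols of Ifna genes, Ifnab, Ifnb1, Ifng, Ifnk, Ifne, Ifnz, Ifnl2 and Ifnl3. Every such symbol in it was to be counted, and counts were made for Ifnb1, Ifng and Ifnz. No count of an Ifna gene was made.

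Ifnb1 was low in control mice and higher after ATV:4D9 in both genotypes. The 4 WT ATV:ISO mice had 0.222, 0, 0.310 and 0.308 CPM (4, 0, 7 and 10 UMIs). The 4 WT ATV:4D9 mice had 2.91, 2.01, 2.66 and 2.43 CPM (200, 134, 146 and 199 UMIs). Every WT ATV:4D9 mouse lay above every WT ATV:ISO mouse. The log2 fold change was 3.50 (SE 0.43, 11.3-fold, adjusted p = 5.76e-07). In AppSAA mice, ATV:ISO gave 0.118, 0.250, 0.446 and 0.398 CPM and 4D9 gave 0.241, 0.183, 0.292 and 0.413 CPM. ATV:4D9 gave 8.77, 5.17, 8.67 and 4.20 CPM (607, 289, 340 and 419 UMIs). The AppSAA ATV:4D9 mice were separate from both other AppSAA groups, and mice 1 and 3 were higher than mice 2 and 4. This was a log2 fold change of 4.33 against ATV:ISO (SE 0.34, 20.1-fold, adjusted p = 1.81e-09) and 4.51 against 4D9 (SE 0.36, 22.8-fold, adjusted p = 2.35e-09). Ifnb1 was 2.67-fold higher in AppSAA ATV:4D9 than in WT ATV:4D9 mice (log2 1.42, SE 0.27, adjusted p = 0.0012), again with no overlap. The effect of ATV:4D9 itself did not differ detectably between genotypes (difference of log2 fold changes 0.82, SE 0.63, adjusted p = 0.501), and its error was large because the control counts were small. These CPM values are low, and each rests on the UMI counts given.

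**Figure D1:**
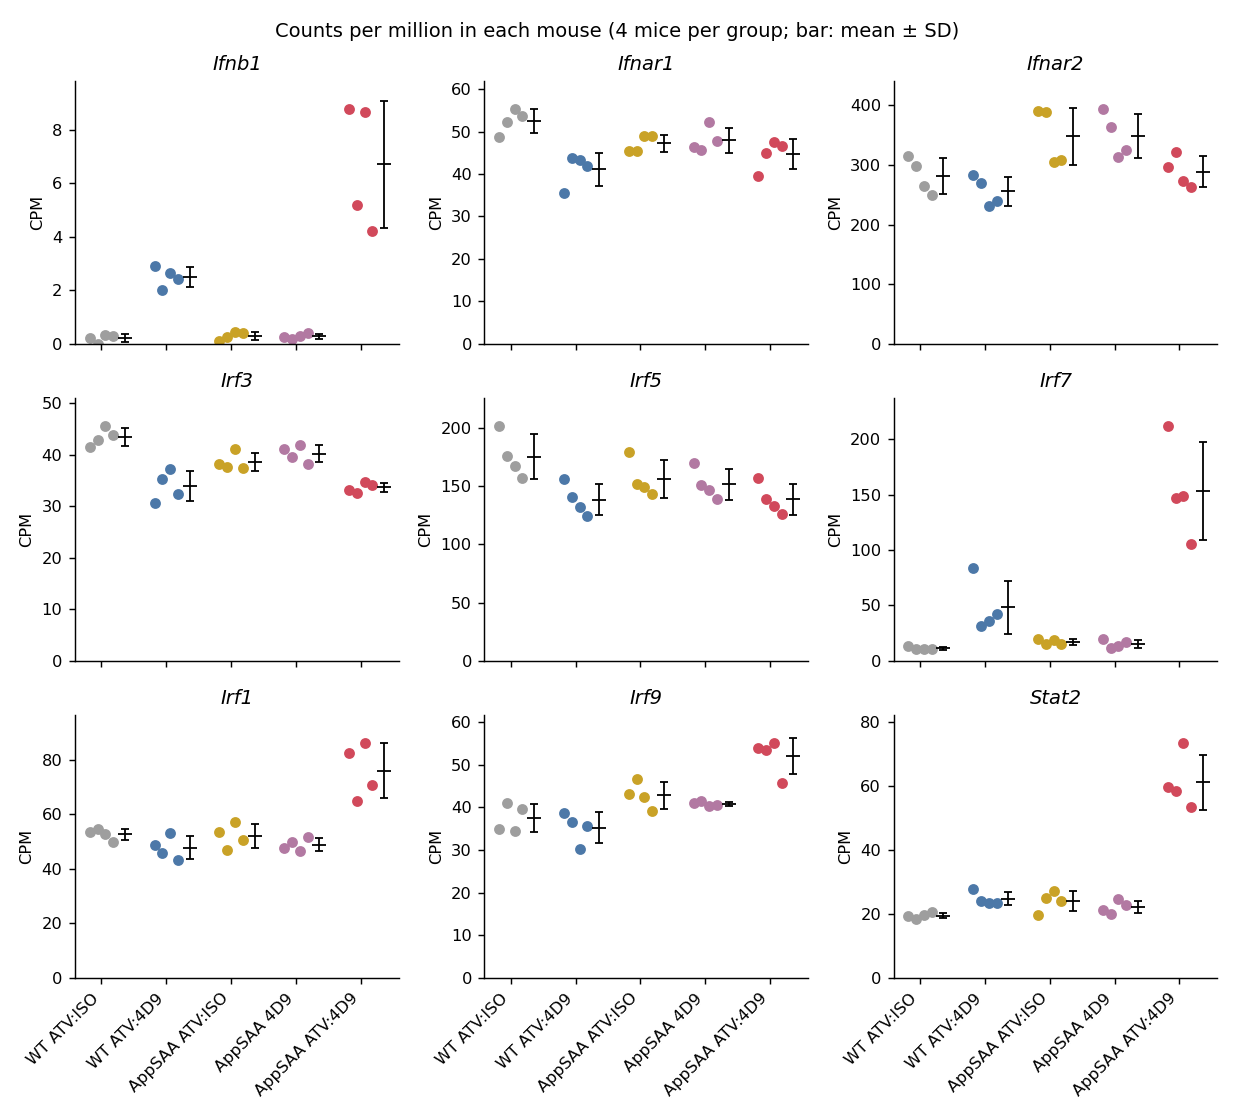
CPM of each member (y axis, from 0) in the 4 mice of each group (points, mice 1 to 4 from left to right) with the mean ± SD (bar). Ifnb1, Irf7, Irf1 and Stat2 are highest in the 4 AppSAA ATV:4D9 mice, Ifnb1 and Irf7 also lie above the controls in WT ATV:4D9 mice, and the 4D9 points sit among the ATV:ISO points.

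Most Ifnb1 UMIs came from few cells. Of the 639 cells with Ifnb1, 394 held 1 UMI, and 73 cells with 10 or more UMIs held 1398 UMIs (56.4%). The highest cell held 74. In WT ATV:ISO mice, 17 of 19 cells with Ifnb1 held a single UMI and no cell held more than 2. In WT ATV:4D9 mice, 35 cells with 5 or more UMIs held 68.5% of the 679 UMIs. In AppSAA ATV:4D9 mice, 92 such cells held 77.4% of the 1655 UMIs, while AppSAA ATV:ISO had 3 and AppSAA 4D9 had 1. After every cell was thinned to 5000 UMIs, leaving out shallower cells (1084, 402, 1275, 961 and 587 cells in the order of the groups here), the share of cells with Ifnb1 was 0.0946% ± 0.109 (SD, n = 4) in WT ATV:ISO, 0.592% ± 0.150 in WT ATV:4D9, 0.102% ± 0.0325 in AppSAA ATV:ISO, 0.103% ± 0.0588 in AppSAA 4D9 and 1.08% ± 0.404 in AppSAA ATV:4D9. Unthinned, the same shares were 0.189%, 1.19%, 0.235%, 0.256% and 2.12%. None of the 639 cells held more UMIs of another marker list than of the microglial list, and only 2 of all 74758 cells did. This check says little on the source of Ifnb1, because the microglial list was far above the others in every mouse.

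**Figure D2:**
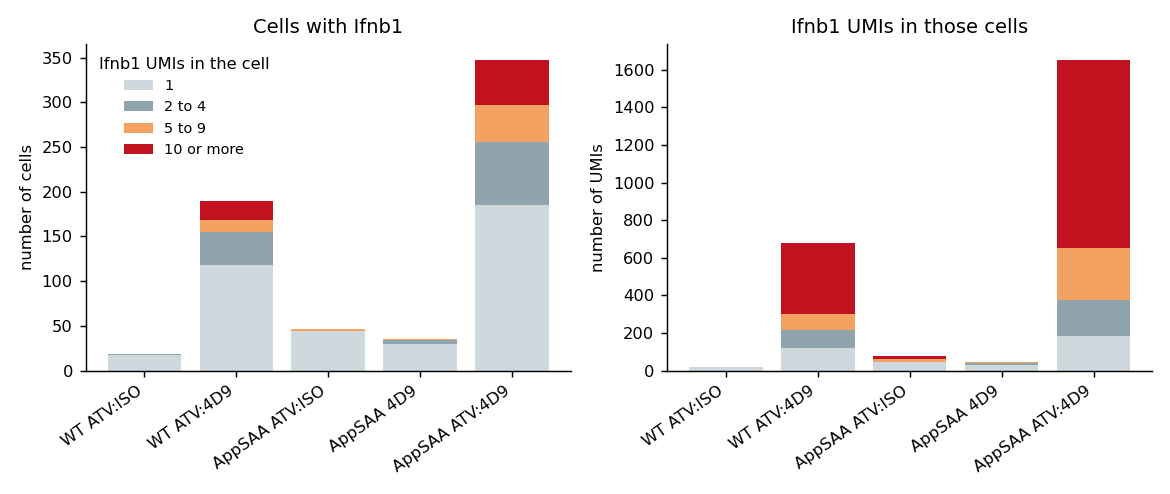
Number of cells with Ifnb1 (left) and Ifnb1 UMIs in those cells (right) in each group, stacked by the number of Ifnb1 UMIs in the cell. Cells with 10 or more UMIs (dark red) were 21 in WT ATV:4D9 and 51 in AppSAA ATV:4D9, and they held 378 and 1005 UMIs.

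Across all 9 members, ATV:4D9 in WT mice gave 6 calls, 3 higher (Ifnb1, Irf7 and Stat2) and 3 lower (Ifnar1, Irf3 and Irf5), where 63.3% of all genes tested were called (30.8% higher and 32.5% lower), so the number of calls was close to the background. In AppSAA mice, ATV:4D9 against ATV:ISO gave 7 calls, 5 higher (Ifnb1, Irf1, Irf7, Irf9 and Stat2) and 2 lower (Ifnar2 and Irf3), against 55.1% of all genes (27.9% higher and 27.1% lower). Against 4D9 the same numbers of members were called, 5 higher and 2 lower, where 54.3% of genes were called, 27.6% higher and 26.7% lower. These comparisons share AppSAA ATV:4D9 mice, so they are not independent. The median log2 fold change of the members was -0.14 in WT and 0.28 in AppSAA mice against ATV:ISO, beside -0.05 and -0.03 over all genes. With the pool as a block, 7, 8 and 9 members were called in these 3 comparisons, and 74.6%, 70.7% and 69.9% of all genes.

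**Figure D3:**
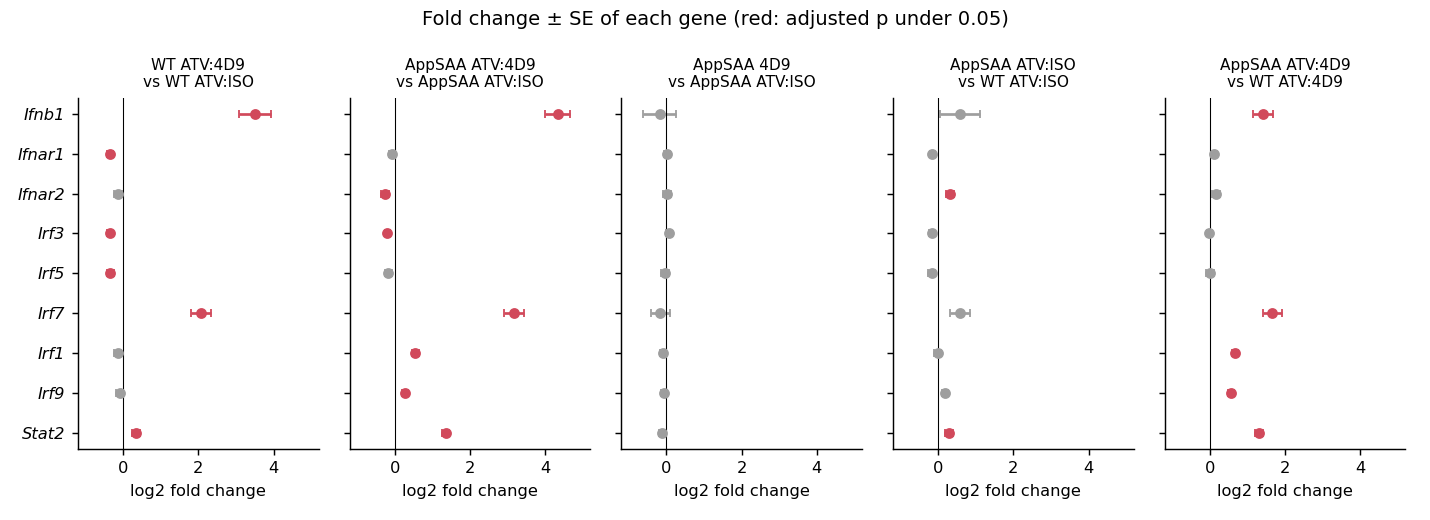
Log2 fold change ± SE of each member (points and bars) in 5 comparisons, red where the adjusted p was under 0.05. Ifnb1 and Irf7 lie far to the right with ATV:4D9 in both genotypes, Stat2 and Irf1 mainly in AppSAA mice, and all 9 members are near 0 for 4D9 against ATV:ISO.

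On the CPM scale the receptor chains moved little with ATV:4D9 (log2 from -0.35 to -0.08). Their mean UMIs per cell were higher (log2 from 0.19 to 0.71), so the direction depended on the scale. Ifnar1 was 48.6, 52.2, 55.3 and 53.7 CPM in WT ATV:ISO and 35.4, 43.7, 43.4 and 41.8 CPM in WT ATV:4D9 mice, with no overlap. IFNAR1 is the chain that carries the kinase TYK2. It was lower on the CPM scale with ATV:4D9 in WT mice (log2 -0.35, SE 0.08, adjusted p = 0.000471), whereas mean UMIs per cell were higher (log2 ratio of means 0.49). In AppSAA mice its log2 fold change was -0.08 (SE 0.08, adjusted p = 0.391) against ATV:ISO and -0.10 against 4D9, the latter called with the pool as a block (adjusted p = 0.044), with mean UMIs per cell higher (log2 0.42 and 0.35). Ifnar2 was 391, 389, 306 and 308 CPM in AppSAA ATV:ISO and 297, 322, 273 and 263 CPM in AppSAA ATV:4D9 mice. These groups overlapped, but Ifnar2 was lower in each of the 4 pools (log2 -0.27, SE 0.11, adjusted p = 0.0378), again with higher mean UMIs per cell (log2 0.24). This call was lost without AppSAA ATV:ISO mouse 1 or 2 or AppSAA ATV:4D9 mouse 1, 3 or 4 (log2 -0.21, -0.21, -0.28, -0.24 and -0.21; adjusted p from 0.0529 to 0.127), with cells of 1000 to 25000 UMIs (log2 -0.19, adjusted p = 0.122) and with no filter (log2 -0.25, adjusted p = 0.0672). Against 4D9, Ifnar2 also fell on the CPM scale (log2 -0.27, SE 0.11, adjusted p = 0.0363; mean UMIs per cell were higher, log2 0.19), and that call was lost without AppSAA 4D9 mouse 1 or 2 or AppSAA ATV:4D9 mouse 1, 3 or 4 (log2 from -0.29 to -0.21; adjusted p from 0.0518 to 0.127), with cells of 1000 to 25000 UMIs (log2 -0.19, adjusted p = 0.116) and with no filter (log2 -0.25, adjusted p = 0.0664). With the pool as a block, both AppSAA calls of Ifnar2 were kept (log2 -0.26, adjusted p = 1.86e-05 against ATV:ISO, and log2 -0.27, adjusted p = 1.42e-05 against 4D9). In WT mice Ifnar2 was called only with the pool as a block (log2 -0.14, adjusted p = 0.00701), and its mean UMIs per cell were higher without overlap (log2 0.71). Mean UMIs per cell were tested with a two-sided exact permutation test of 4 against 4 mice, for which the smallest p, 0.0286, was 0.0593 after adjustment over 54 tests, so no difference on that scale could pass.

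Among the factors upstream of interferon, Irf3 and Irf5 were lower on the CPM scale and Irf7 was higher. Irf3 was 41.6, 42.8, 45.5 and 43.8 CPM in WT ATV:ISO and 30.7, 35.2, 37.2 and 32.5 CPM in WT ATV:4D9 mice, and 38.1, 37.6, 41.1 and 37.3 CPM in AppSAA ATV:ISO and 33.1, 32.6, 34.7 and 34.1 CPM in AppSAA ATV:4D9 mice. Neither pair of groups overlapped. Its log2 fold change was -0.36 (SE 0.06, adjusted p = 5.96e-05) in WT and -0.20 (SE 0.06, adjusted p = 0.0121) in AppSAA mice, while mean UMIs per cell were higher in both (log2 0.49 and 0.30). The AppSAA call was lost without AppSAA ATV:ISO mouse 3 (log2 -0.16, adjusted p = 0.0506) and with cells of 1000 to 25000 UMIs (log2 -0.14, adjusted p = 0.0741). With the pool as a block it was kept (log2 -0.19, adjusted p = 0.000437). Irf5 fell from 201, 176, 168 and 157 to 156, 141, 132 and 125 CPM in WT mice (log2 -0.34, SE 0.10, adjusted p = 0.00472), with higher mean UMIs per cell (log2 0.50). Its log2 fold change in AppSAA mice was -0.17 (SE 0.10, adjusted p = 0.149), and with the pool as a block it was called (adjusted p = 2.86e-05), with higher mean UMIs per cell (log2 0.33). The same held against 4D9 (log2 -0.13, adjusted p = 0.000443 with the block, mean UMIs per cell log2 0.33).

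Irf7, the factor that amplifies interferon production and is itself induced by interferon, had the second largest change of the members after Ifnb1. WT ATV:ISO mice had 13.4, 10.7, 10.9 and 10.8 CPM and WT ATV:4D9 mice 83.4, 31.8, 35.5 and 42.3 CPM. The groups did not overlap, and WT ATV:4D9 mouse 1 stood above the other mice of its group. Its log2 fold change was 2.08 (SE 0.27, 4.23-fold, adjusted p = 1.06e-06), and 1.68 without that mouse. AppSAA mice had 20.1, 15.2, 18.4 and 14.8 CPM with ATV:ISO, 19.6, 11.7, 13.0 and 17.0 CPM with 4D9, and 212, 147, 149 and 105 CPM with ATV:4D9. The ATV:4D9 values were separate from all others. Irf7 changed by a log2 of 3.16 against ATV:ISO (SE 0.27, 8.96-fold, adjusted p = 5.04e-09) and 3.33 against 4D9 (SE 0.27, 10.0-fold, adjusted p = 2.97e-09). On thinned cells, the share with an Irf7 UMI was 4.35% ± 0.309 (SD, n = 4) in WT ATV:ISO, 12.6% ± 3.95 in WT ATV:4D9, 5.91% ± 0.672 in AppSAA ATV:ISO, 5.15% ± 0.984 in AppSAA 4D9 and 32.4% ± 5.26 in AppSAA ATV:4D9. Unthinned, these shares were 6.88%, 24.0%, 11.4%, 10.5% and 52.6%.

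On the CPM scale, the ISGF3 subunit Stat2 rose in both genotypes, and Irf9, the other subunit followed here, and Irf1 were called higher in AppSAA mice. Stat2 was 19.4, 18.5, 19.6 and 20.5 CPM in WT ATV:ISO and 27.8, 24.0, 23.6 and 23.6 CPM in WT ATV:4D9 mice, a log2 fold change of 0.34 (SE 0.10, adjusted p = 0.00637). In AppSAA mice it was 19.7, 24.9, 27.1 and 23.9 CPM with ATV:ISO, 21.4, 20.1, 24.5 and 22.8 CPM with 4D9, and 59.6, 58.4, 73.3 and 53.3 CPM with ATV:4D9. No AppSAA ATV:4D9 mouse overlapped any other group. The log2 fold change against ATV:ISO was 1.35 (SE 0.10, 2.55-fold, adjusted p = 8.16e-10). Irf1 was 53.5, 54.5, 52.8 and 49.8 CPM in WT ATV:ISO and 48.6, 45.8, 53.2 and 43.4 CPM in WT ATV:4D9 mice, which overlapped (log2 -0.14, SE 0.09, adjusted p = 0.171), while its mean UMIs per cell were higher without overlap (log2 0.71). In AppSAA mice Irf1 rose from 53.5, 46.9, 57.4 and 50.7 CPM to 82.6, 64.8, 86.1 and 70.7 CPM with ATV:4D9 (log2 0.54, SE 0.09, 1.46-fold, adjusted p = 2.86e-05). Irf9 was 35, 41.0, 34.6 and 39.7 CPM in WT ATV:ISO and 38.7, 36.5, 30.2 and 35.6 CPM in WT ATV:4D9 mice (log2 -0.09, SE 0.08, adjusted p = 0.348). It rose in AppSAA mice from 43.1, 46.8, 42.5 and 39.1 CPM to 54, 53.6, 55.0 and 45.7 CPM (log2 0.28, SE 0.08, 1.22-fold, adjusted p = 0.00678). Mean UMIs per cell of Irf9 were higher by about the same amount in WT and AppSAA mice (log2 0.74 and 0.78), in both without overlap.

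The difference between the genotypes in the response to ATV:4D9 was tested as an interaction, which called 9.14% of all genes (3.79% higher and 5.35% lower) and 2 members, Stat2 and Irf1. The ATV:4D9 effect on Stat2 was 1.01 larger on the log2 scale in AppSAA mice (SE 0.14, adjusted p = 0.00014), and that on Irf1 was 0.69 larger (SE 0.12, adjusted p = 0.00124). The difference was 1.08 for Irf7 (SE 0.36, adjusted p = 0.0658) and 0.37 for Irf9 (SE 0.12, adjusted p = 0.0501). With the pool as a block 7 members were called, beside 30.5% of all genes, the added members being Irf7 (1.13, adjusted p = 0.0015), Irf9 (0.38, adjusted p = 0.0069), Ifnar1 (0.27, adjusted p = 0.00318), Irf5 (0.17, adjusted p = 0.00326) and Irf3 (0.17, adjusted p = 0.0443). In mean UMIs per cell the difference of log2 ratios, which has no test, was -0.08 for Ifnar1, -0.17 for Irf5 and -0.19 for Irf3, the opposite direction, and 0.04 for Irf9, 0.75 for Irf7, 0.33 for Irf1 and 0.66 for Stat2. The Irf7 difference was also called without WT ATV:4D9 mouse 1 (1.48, adjusted p = 0.00165) or AppSAA ATV:4D9 mouse 4 (1.18, adjusted p = 0.0426). Irf9 was called without WT ATV:ISO mouse 1 or 3, WT ATV:4D9 mouse 1, AppSAA ATV:ISO mouse 2 or AppSAA ATV:4D9 mouse 4 (0.39 to 0.42, adjusted p from 0.0344 to 0.0451) and with limma/voom (0.38, adjusted p = 0.049), and Ifnar1 without AppSAA ATV:4D9 mouse 1 (0.33, adjusted p = 0.0399).

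Under ATV:4D9, AppSAA mice were higher than WT mice for 5 members, where 11.8% of all genes were called, 7.84% higher and 3.98% lower, and no member was called lower. These were Ifnb1 (above), Irf7 (log2 1.67, SE 0.25, 3.17-fold, adjusted p = 8.93e-05), Stat2 (log2 1.30, SE 0.10, 2.47-fold, adjusted p = 4.81e-08), Irf1 (log2 0.67, SE 0.09, 1.59-fold, adjusted p = 1.85e-05) and Irf9 (log2 0.56, SE 0.08, 1.48-fold, adjusted p = 6.99e-05). For all 5, CPM of the 2 groups did not overlap, which was also so for 14.9% of all genes tested. With the pool as a block, Ifnar2 (log2 0.18, adjusted p = 0.00346) and Ifnar1 (log2 0.12, adjusted p = 0.0419) were also called, beside 31.4% of all genes.

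Under ATV:ISO, fewer members were called between the genotypes, from a larger share of all genes. There 2 members were called, both higher in AppSAA mice, and 28.2% of all genes (14.4% higher and 13.7% lower). Stat2 was higher by a log2 of 0.30 (SE 0.10, adjusted p = 0.0355), with overlapping groups. Ifnar2 rose from 315, 298, 264 and 249 CPM to 391, 389, 306 and 308 CPM (log2 0.31, SE 0.11, adjusted p = 0.0365), with overlapping groups but a higher value in each of the 4 pools. The Stat2 call was lost without WT ATV:ISO mouse 1, 2 or 3 or AppSAA ATV:ISO mouse 2, 3 or 4 (log2 0.23 to 0.30, adjusted p from 0.0591 to 0.125), and with limma/voom (log2 0.29, adjusted p = 0.0549). The Ifnar2 call was lost without WT ATV:ISO mouse 3 or 4 or AppSAA ATV:ISO mouse 1 or 2 (log2 0.25 to 0.28, adjusted p from 0.0963 to 0.119). With the pool as a block, the calls of Stat2 (adjusted p = 0.0137) and Ifnar2 (adjusted p = 1.06e-05) were kept. The log2 difference was 0.58 for Irf7 (SE 0.26, adjusted p = 0.106) and 0.59 for Ifnb1 (SE 0.54, adjusted p = 0.445). Irf7 was called without WT ATV:4D9 mouse 1 (log2 0.58, adjusted p = 0.0268). With cells of 1000 to 25000 UMIs, Irf7 (log2 0.84, adjusted p = 0.0355) and Irf9 (log2 0.24, adjusted p = 0.0482) were called. Irf9 was called without AppSAA ATV:4D9 mouse 4 (log2 0.22, adjusted p = 0.0407), and Irf3 without any of AppSAA ATV:ISO mouse 3, WT ATV:ISO mouse 1, WT ATV:4D9 mouse 1 or 3 or AppSAA ATV:4D9 mouse 1 (log2 -0.20, -0.19, -0.17, -0.17 and -0.17). With the pool as a block 7 members were called, beside 51% of all genes: Stat2, Ifnar2, Irf7 (log2 0.59, adjusted p = 0.0122) and Irf9 (log2 0.18, adjusted p = 0.0364) were higher, and Irf3 (log2 -0.17, adjusted p = 0.00281), Irf5 (log2 -0.17, adjusted p = 7.79e-05) and Ifnar1 (log2 -0.15, adjusted p = 0.00932) were lower on the CPM scale, where mean UMIs per cell had ratios above 1 (log2 0.06, 0.07 and 0.08).

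For 4D9 without transferrin receptor binding, none of the members was called against ATV:ISO, and 0% of all genes. By edgeR 0 members had an unadjusted p under 0.05, and DESeq2 and limma/voom also called 0 members. Over all 14058 genes, 79 had an unadjusted p under 0.05 by edgeR, and DESeq2 called 1 gene. This is a smaller share than the 0.05 that calibrated tests would give with no effect, so the edgeR fit was conservative here. The absence of calls therefore does not show that 4D9 had no effect. The log2 fold changes were -0.18 for Ifnb1 (SE 0.45), -0.17 for Irf7 (SE 0.25), -0.11 for Stat2 (SE 0.10), -0.09 for Irf1 (SE 0.09) and -0.07 for Irf9 (SE 0.08), and 0.02, 0.00302, 0.06 and -0.04 for Ifnar1, Ifnar2, Irf3 and Irf5. The Ifnb1 values of these groups rest on 47 and 75 UMIs.

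The members were next described over the 6 clusters of the coarser deposited clustering, in which their own counts were used, so differences between clusters are given as a description. Mouse and cluster sums with at least 20 cells were kept, 109 in all. Irf7 had a median of 349 CPM in cluster 5 (range 171 to 629 over 17 mice), against medians of 7.90 to 31.0 CPM in clusters 0 to 4. Stat2 had a median of 154 CPM in cluster 5 (127 to 195) and 18.6 to 23.5 CPM elsewhere. Irf1 had 143 CPM in cluster 5, 69.7 CPM in cluster 3 and 37.0 to 48.1 CPM in the others. Irf9 had 68.3 CPM in cluster 5 and 34.6 to 44.6 CPM elsewhere. In the 17 mice with a cluster 5 sum, the highest value of Irf7 and of Stat2 lay in that cluster in every mouse. Ifnar2 was highest in cluster 1 (397 CPM, against 266 to 311 CPM), and Irf5 in cluster 3 (183 CPM, against 125 to 156 CPM). Ifnar1 and Irf3 had medians of 39.1 to 52.2 and 33.9 to 43.8 CPM with overlapping ranges. In the finer deposited clustering, the highest medians of Ifnb1, Irf1, Irf7, Irf9 and Stat2 lay in a cluster of which 85.7% of cells were in cluster 5. Ifnar2 was less separate there, in unscaled CPM. Its medians were 346.5 and 336.8 in finer clusters 6 and 3, mainly in cluster 1, and 346.1 in finer cluster 0, mainly in cluster 0.

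**Figure D4:**
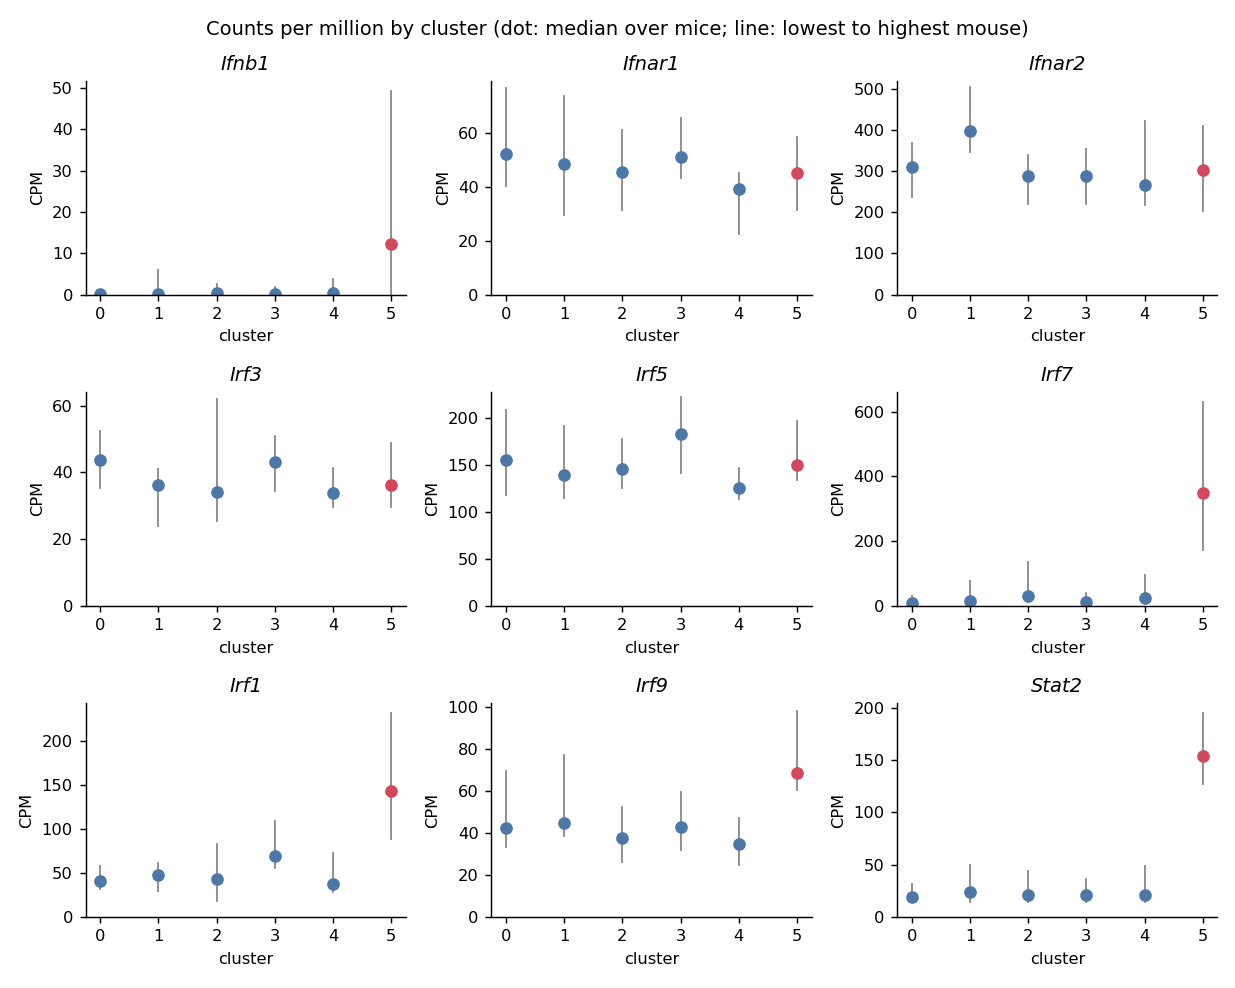
Median CPM over mice (dots) with the lowest and highest mouse (lines) for each member in clusters 0 to 5 (x axis), cluster 5 in red. Irf7, Stat2 and Irf1 stand out in cluster 5 with medians of 349, 154 and 143 CPM, while the ranges of Ifnar1 and Irf3 overlap between all clusters.

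Cluster 5 held 4989 of the 74758 cells and 1654 of the 2477 Ifnb1 UMIs. Pooled over the mice of AppSAA ATV:4D9, Ifnb1 was 20.9 unscaled CPM in cluster 5 (exact 95% Poisson interval 19.7 to 22.1, which covers counting error only), 2.79 in cluster 4 (2.43 to 3.18), 1.85 in cluster 2 (1.60 to 2.14) and 0 to 0.194 in clusters 0, 1 and 3. In WT ATV:4D9 it was 30.5 in cluster 5 (27.6 to 33.8), 1.21 in cluster 4, 1.19 in cluster 2 and 0 to 0.803 in clusters 0, 1 and 3. In the other 3 groups the pooled value was also highest in cluster 5 (1.82, 3.25 and 6.48 in WT ATV:ISO, AppSAA ATV:ISO and AppSAA 4D9, from 2, 20 and 17 UMIs). The 2 UMIs of WT ATV:ISO lay in 1 cell. In these groups clusters 2 and 4 held 1 and 0 UMIs each, so their order could not be read. AppSAA ATV:ISO mice 1, 2 and 3 had their highest Ifnb1 in clusters 0, 2 and 3 (0.474, 0.903 and 1.19 CPM). Cluster 5 was highest in 13 of 20 mice, 17 of which had a cluster 5 sum. By mouse, Ifnb1 in cluster 5 was 24.7, 39.5, 49.2 and 29.3 CPM in WT ATV:4D9 and 32.6, 21.2, 29.7 and 14.9 CPM in AppSAA ATV:4D9, and these groups overlapped. Both ATV:4D9 groups lay above the other groups. In AppSAA ATV:ISO it was 0, 0.832, 0.641 and 12.2 CPM (0, 1, 2 and 17 UMIs), and in AppSAA 4D9 10.8, 0, 8.62 and 6.95 CPM. Mouse 4 of AppSAA ATV:ISO was far above the others of its group. Within cluster 5, Ifnb1 was higher with ATV:4D9 than with ATV:ISO in AppSAA mice (log2 2.79, SE 0.52, adjusted p = 0.000308) and than with 4D9 (log2 1.80, SE 0.58, adjusted p = 0.0349). It was not called between AppSAA ATV:4D9 and WT ATV:4D9 (log2 -0.51, SE 0.28, adjusted p = 0.338), while it was called in the sums over all cells. Cells of cluster 5 were grouped by their expression, so this cannot show that Ifnb1 was equal in the 2 genotypes.

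Cluster 5 made up 0.737% ± 0.223 (SD, n = 4) of cells in WT ATV:ISO, 4.21% ± 1.02 in WT ATV:4D9, 2.48% ± 1.05 in AppSAA ATV:ISO, 1.5% ± 0.271 in AppSAA 4D9 and 22.4% ± 4.26 in AppSAA ATV:4D9. These shares rest on genes that differ between the groups and are given only as context. In AppSAA ATV:4D9 mice cluster 5 held 57.3% ± 3.51 of the Irf7 UMIs, 50.5% ± 3.30 of the Stat2 UMIs, 38.7% ± 4.51 of the Irf1 UMIs and 75.6% ± 11.9 of the Ifnb1 UMIs, with 21.7% of all UMIs. In WT ATV:4D9 mice it held 39.7% ± 3.43, 26.6% ± 2.35, 15.7% ± 2.94 and 58.1% ± 10.1 of the same genes, with 4.63% of all UMIs.

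Within clusters, 30 pairs of cluster and comparison had sums from at least 3 mice a group, and the members gave 244 tests. The clusters were made from the expression of these cells, so each test is within a class chosen on expression. Similar levels within a cluster therefore cannot show that the cells did not change. Of these 35 were called, 32 higher in the first-named group and 3 lower, where 5.06% of all gene tests in the same pairs were called. Irf7 accounted for 12 calls and Stat2 for 8. With the pool as a block the number was 55, with 20 calls added and 0 removed (9.67% of all gene tests), and with a pool left out it ran from 25 to 29. For 4D9 against ATV:ISO in AppSAA mice, 0% of genes were called in every cluster without the block. Ifnb1 had 4 of the 244 tests, all in cluster 5, and was not tested in clusters 0 to 4. In cluster 4 it had 224 UMIs in AppSAA ATV:4D9 and 0 in AppSAA ATV:ISO mice.

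For ATV:4D9 against ATV:ISO in AppSAA mice, Irf7 rose within clusters 1 to 5. Its log2 fold change was 1.83 in cluster 1 (SE 0.23, adjusted p = 8.53e-05, 1.51% of genes called there), 2.39 in cluster 2 (SE 0.35, adjusted p = 3.47e-05, 13.2% of genes), 1.36 in cluster 3 (SE 0.21, adjusted p = 0.000247, 4.33% of genes), 1.82 in cluster 4 (SE 0.33, adjusted p = 0.000216, 24.5% of genes) and 0.73 in cluster 5 (SE 0.23, adjusted p = 0.0181, 29.7% of genes). In cluster 0 it was 1.04 (SE 0.27, adjusted p = 0.077, 0.667% of genes) and was called with the pool as a block (adjusted p = 0.0046, 5.27% of genes). In cluster 2, for example, AppSAA ATV:4D9 mice ranged from 69.3 to 135 CPM and AppSAA ATV:ISO mice from 10.5 to 24.8 CPM. Stat2 rose in cluster 1 (log2 0.91, SE 0.14, adjusted p = 0.000554), cluster 2 (log2 0.85, SE 0.16, adjusted p = 0.000631) and cluster 4 (log2 0.59, SE 0.18, adjusted p = 0.0185). In cluster 5, whose cells were grouped by their expression, its log2 fold change was -0.08 (SE 0.11, adjusted p = 0.632), with levels of 145 to 155 CPM in both groups. Irf1 rose in cluster 3 (log2 0.40, SE 0.11, adjusted p = 0.0408) and cluster 4 (log2 0.70, SE 0.16, adjusted p = 0.00295), and Irf9 in cluster 1 (log2 0.50, SE 0.10, adjusted p = 0.0069). The calls in the lower direction were Irf3 in cluster 2 (log2 -0.45, SE 0.14, adjusted p = 0.0339) and Ifnar2 in cluster 4 (log2 -0.49, SE 0.13, adjusted p = 0.00701), with the latter also called against 4D9 (log2 -0.43, SE 0.13, adjusted p = 0.0183). The pool as a block added Irf9 (log2 0.32, adjusted p = 0.0426), Ifnar2 (log2 -0.18, adjusted p = 0.044) and Irf5 (log2 -0.20, adjusted p = 0.047) in cluster 2, where it called 24.8% of genes. In cluster 3, where it called 12.6%, it added Stat2 (log2 0.53, adjusted p = 0.00621), Ifnar1 (log2 0.26, adjusted p = 0.025) and Irf5 (log2 -0.18, adjusted p = 0.0356).

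Against 4D9, Irf7 was called in clusters 0 to 4 (log2 1.16, 2.00, 1.99, 1.47 and 2.17), where 0.65%, 1.76%, 13.4%, 3.52% and 22.1% of genes were called. Stat2 was called in clusters 1, 2 and 4 (log2 0.98, 0.85 and 0.88), Irf9 in clusters 1 and 2 (log2 0.54 and 0.45) and Irf1 in clusters 3 and 4 (log2 0.48 and 0.88). With the pool as a block Irf7 was also called in cluster 5 (log2 0.43, adjusted p = 0.00422, 23.1% of genes called). The block further added Irf1 in cluster 1 (log2 0.32, adjusted p = 0.015, 6.73% of genes), Stat2 in cluster 3 (log2 0.52, adjusted p = 0.00969, 11.2% of genes) and Ifnar2 in clusters 2 and 5 (log2 -0.18 and -0.30, adjusted p = 0.0481 and 0.0104, 23.1% of genes in each).

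Between AppSAA ATV:4D9 and WT ATV:4D9, calls without the block lay in clusters 2 and 4, where 2.07% and 2.76% of genes were called. Cluster 1 was not tested, because WT ATV:4D9 had 1 sum there. In clusters 0 and 3, with 0.154% and 0.163% of genes called, no member was called by edgeR, with 3 and 4 members at an unadjusted p under 0.05, and Irf7 in cluster 3 was called with the pool as a block (log2 1.06, adjusted p = 0.00481, 1.7% of genes). Irf7 was higher in AppSAA mice by a log2 of 1.42 in cluster 2 (SE 0.26, adjusted p = 0.00105) and 1.63 in cluster 4 (SE 0.22, adjusted p = 2.59e-05). Stat2 was higher by 0.93 (SE 0.12, adjusted p = 1.5e-05) and 1.07 (SE 0.12, adjusted p = 3.74e-06), and Irf9 by 0.40 (SE 0.11, adjusted p = 0.0454) and 0.55 (SE 0.11, adjusted p = 0.00391). Irf1 was called in cluster 4 (log2 0.58, SE 0.12, adjusted p = 0.00348), and in cluster 2 with the block (log2 0.41, adjusted p = 0.027, 7.38% of genes called). In cluster 5, where 6.87% of genes were called, 0 members were called by edgeR (3 at an unadjusted p under 0.05), and the log2 differences were -0.05 for Irf7 (SE 0.22, adjusted p = 0.945) and -0.08 for Stat2 (SE 0.11, adjusted p = 0.772). The block called 3 members there, Ifnar1 (log2 0.34, adjusted p = 0.013) and Ifnar2 (log2 0.32, adjusted p = 0.00483) higher and Irf1 (log2 -0.32, adjusted p = 0.0139) lower in AppSAA mice, with 15.8% of genes. Irf7 in cluster 5 was 629, 358, 352 and 424 CPM in WT ATV:4D9 and 596, 448, 349 and 328 CPM in AppSAA ATV:4D9 mice, which overlapped. In WT mice, Irf7 was not called within clusters 0, 2 or 3 for ATV:4D9 against ATV:ISO (log2 0.55, -0.58 and 0.68, SE 0.30, 0.40 and 0.24), where 1.47%, 5.88% and 6.17% of genes were called, and the pool as a block called cluster 3 (adjusted p = 0.0158, 17.5% of genes). The cluster 2 value rests on WT ATV:ISO sums of 23 to 42 cells. Mouse 2 of that group had 115 CPM there, and the others had 32.3 to 38.5 CPM. For AppSAA against WT mice under ATV:ISO, the block added Irf9 in clusters 0 and 3 (log2 0.32 and 0.29, adjusted p = 0.000934 and 0.0202), where it called 4.61% and 1.64% of genes. For ATV:4D9 in WT mice, clusters 1, 4 and 5 did not have sums of at least 20 cells from 3 mice in both groups.

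**Figure D5:**
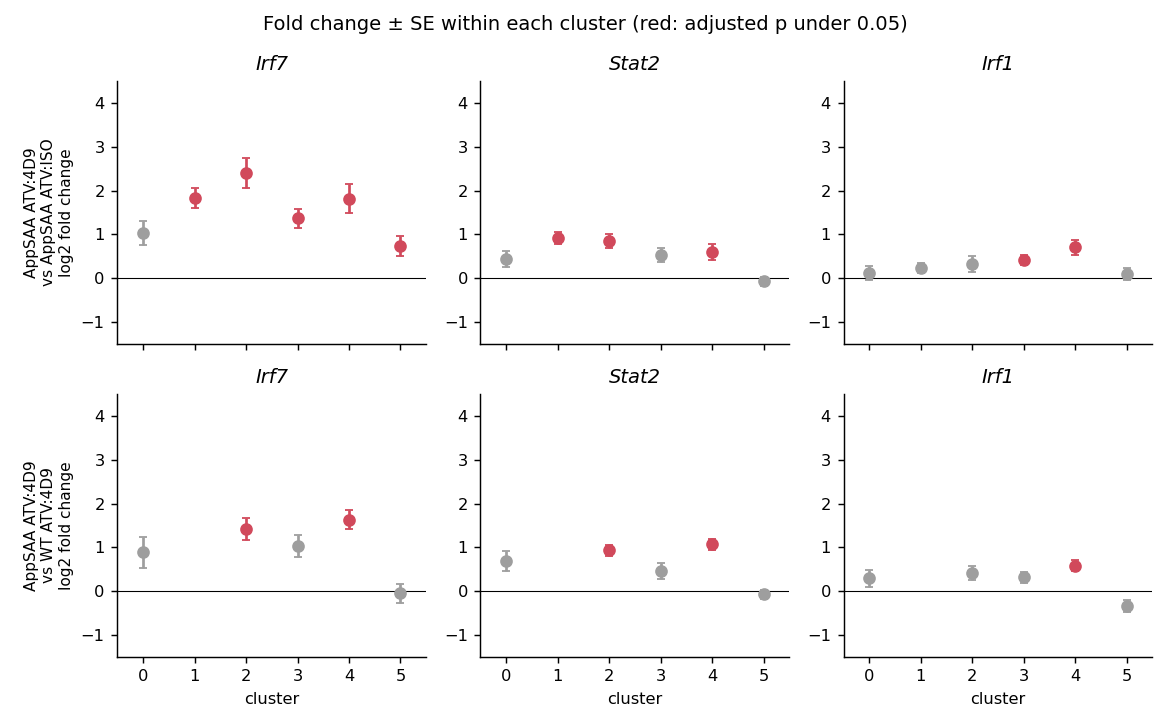
Log2 fold change ± SE of Irf7, Stat2 and Irf1 within clusters 0 to 5 (x axis) for AppSAA ATV:4D9 against AppSAA ATV:ISO (top) and against WT ATV:4D9 (bottom), red where the adjusted p was under 0.05. Irf7 lies above 0 in every cluster at the top, and at the bottom it is called in clusters 2 and 4 and is near 0 in cluster 5.

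Cells with at least 2 Ifnb1 UMIs could be compared with cells of the same cluster that had none, over cluster 5 of the 8 ATV:4D9 mice (149 and 3927 cells, 7 to 40 of the former per mouse). This split was chosen after the values were seen and has no test. The sets were not matched for depth. Over the mice, median UMIs per cell were 18791.5 to 23497 in the Ifnb1 cells and 13290 to 19859 in the others. In unscaled CPM, Irf1 was higher in the Ifnb1 cells in 8 of 8 mice (median 236 against 126) and Irf7 in 7 of 8 (median 549 against 360). Stat2 was higher in 5 of 8 mice (median 141 against 136). Ifnar2 was higher in 1 of 8 (median 197 against 259), and Irf9 in 2 of 8 (median 48.6 against 61.0). Ifnar1 was higher in 2 of 8 (median 28.4 against 39.1), Irf3 in 3 of 8 (22.8 against 31.5) and Irf5 in 5 of 8 (146 against 134).

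Other genes of the pathway were taken from a list of 48, of which 43 were tested. With ATV:4D9 in WT mice 8 rose and 28 fell, and in AppSAA mice against ATV:ISO 9 rose and 18 fell. Over all genes 30.8% rose and 32.5% fell in WT and 27.9% rose and 27.1% fell in AppSAA mice, so the share of the list that rose lay below the background. All 8 and 9 that rose were also higher in mean UMIs per cell, but of those that fell 25 of 28 and 15 of 18 had more UMIs per cell. The falling genes that were also lower in UMIs per cell were Ifngr1, Stat5b and Irf4 in both genotypes (log2 ratios of -0.17, -0.02 and -1.03 in WT and -0.06, -0.12 and -0.73 in AppSAA mice). Stat5b and Stat6, which signal for growth factors and interleukins, fell in CPM in both genotypes (Stat5b log2 -0.87 and -0.62, Stat6 log2 -0.76 and -0.38, Stat6 adjusted p = 1.06e-08 and 0.000111), while mean UMIs per cell of Stat6 were higher (log2 0.09 and 0.12). Of the other receptors and kinases, Ifngr1, a chain of the interferon gamma receptor, fell from 739 ± 71.3 to 367 ± 47.5 CPM (mean ± SD, n = 4) in WT (log2 -1.01, SE 0.12, adjusted p = 3.87e-07) and from 486 ± 65.0 to 327 ± 38.2 CPM in AppSAA mice (log2 -0.57, SE 0.12, adjusted p = 0.000434). Jak3 rose in both (log2 0.50 and 0.62). Irf4 fell from 3.69 ± 0.511 to 0.982 ± 0.387 CPM in WT mice and from 2.14 ± 0.348 to 0.915 ± 0.215 CPM in AppSAA mice, and all 6 other IRF-related genes tested were called lower in both, counting Irf4.

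Among inhibitors of the pathway, Usp18, which binds IFNAR2 and dampens the receptor, had the largest rise, from 7.14 ± 0.506 to 37.5 ± 13.0 CPM in WT mice (log2 2.39, SE 0.22, adjusted p = 8.56e-09) and from 15.0 ± 2.14 to 108 ± 24.7 CPM in AppSAA mice (log2 2.85, SE 0.21, adjusted p = 5.29e-10). Socs3 rose by a log2 of 0.63 (SE 0.17) and 1.00 (SE 0.17). Of the 13 kinases and adaptors upstream of IRF3, IRF5 and IRF7 that were tested, 2 rose in both genotypes, Ikbke, a kinase of IRF3 (log2 0.86 and 1.68), and Traf3, an adaptor (log2 0.60 and 0.59), and 10 fell in WT and 5 in AppSAA mice, where 32.5% and 27.1% of all genes fell. Another list of 30 interferon-stimulated genes had 29 higher in WT and 30 higher in AppSAA mice with ATV:4D9. It was chosen with earlier results of these data known, so its counts are not independent support. The median log2 fold changes of its genes were 1.68 and 2.47, where 30.8% and 27.9% of all genes were higher. Under ATV:ISO, 18 of these were higher in AppSAA than in WT mice, where 14.4% of all genes were, and 0 were called between AppSAA 4D9 and AppSAA ATV:ISO by edgeR. Cxcl10, a chemokine induced by interferons, rose from 119 ± 33.2 to 1400 ± 217 CPM in WT and from 134 ± 44.3 to 2646 ± 946 CPM in AppSAA mice.

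Of 15 immediate early genes, which tissue dissociation can raise, ATV:4D9 had 2 higher and 6 lower in WT mice and 1 higher and 5 lower in AppSAA mice, where 63.3% and 55.1% of all genes were called. Ier3 was higher in both (log2 1.27 and 0.80), and the part of this in the results was not tested.

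The genes whose levels followed each member most closely were ranked by Pearson's r of log2 CPM over the 109 mouse and cluster sums and 8032 genes. These sums share mice, pools and depth, and r is given as a description. Isg15 (0.96), Phf11b (0.96) and Ifi35 (0.95) were closest to Irf7, and Trim30a (0.95), Parp14 (0.94) and Mx1 (0.94) to Stat2. Clec2d (0.87), Ddx58 (0.85) and Trim30d (0.85) were closest to Irf1, Gm4951 (0.77), Trim12c (0.77) and Trim30d (0.76) to Irf9, and Mitd1 (0.81), Rnf213 (0.79) and Rsad2 (0.79) to Ifnb1. For the receptor chains, Hexa (0.88), Ctsl (0.86) and Lamp1 (0.86), which encode lysosomal proteins, were closest to Ifnar2, and Abi1 (0.72), Tns1 (0.71) and Dram2 (0.70) to Ifnar1. Plekho1 (0.76), Gsdmd (0.72) and Unc93b1 (0.72) were closest to Irf5, and Fam53b (0.65), Gpatch8 (0.64) and Tanc2 (0.64) to Irf3. Among the members, r was 0.88 between Irf7 and Stat2, 0.77 between Irf1 and Stat2, 0.73 between Irf9 and Stat2, and 0.72 between Ifnb1 and both Irf7 and Stat2.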

How the data were processed

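Brain myeloid cells of 20 mice were sorted and captured in 4 pools (10x Genomics 3′ v3.1 with cell multiplexing). The deposited values are raw UMI counts per gene and cell, made by the authors with Cell Ranger 6.1.1 on mm10, and the deposited annotation gives mouse, group, pool and Seurat clusters for each cell, together with other labels. The sources differ on the sort (CD11b+ or CD45+/CD11b+) and the tissue (cortex, with or without hippocampus). How doublets were treated was not given in the sources used here, and none were removed here. In all 74758 cells the counts summed to the deposited total, and 543 barcodes occurred in more than 1 pool.

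UMIs were added up within each mouse, and within each cluster of a mouse with 20 or more cells, and tested with edgeR 4.0.16 (filterByExpr, TMM, quasi-likelihood, Benjamini-Hochberg adjustment, all 5 groups in 1 fit) in R 4.3.3. Simulated counts tested the script. Alternatives were RLE size factors, no filter, DESeq2 1.42.0, limma/voom 3.58.1, the pool as a block, cells of 1000 to 25000 UMIs, mean UMIs per cell (exact permutation) and each mouse left out. The labels state that each pool holds 1 mouse of every group, so pools pair the mice. Deviations from group means correlated at 0.143 to 0.607 in the 40 same-pool pairs and -0.514 to 0.249 in the 120 others.

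All 9 members are named. Of each other list, up to 2 called genes in each direction, taken by size of log2 fold change, in WT ATV:4D9 and in AppSAA ATV:ISO against WT ATV:ISO and in AppSAA ATV:4D9 against AppSAA ATV:ISO could be named, and some are given by count only or not reported here. For likeness the 3 genes with the highest r were named, among genes with a mean of at least 10 CPM (prior count 2). The members and lists were chosen with earlier results of these data known. Whether the mice of a group came from separate litters was not given, so p-values measure the spread between these mice.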

Additional observations from a re-analysis of the deposited data

Results flagged for a closer look

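Among 45 sets of a member and a group of 4 mice, 3 had a mouse far from the others relative to the group's range, where chance alone flags about 1 in 20. Irf7 in WT ATV:ISO mouse 1 was 13.4 CPM, with the others at 10.7 to 10.9 CPM. Stat2 in WT ATV:4D9 mouse 1 was 27.8 CPM, with the others at 23.6 to 24.0 CPM. Irf9 in AppSAA ATV:4D9 mouse 4 was 45.7 CPM, with the others at 53.6 to 55.0 CPM.

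The response to ATV:4D9 differed between genotypes by the interaction test for 2 members, where 9.14% of all genes were called. With the pool as a block 7 members and 30.5% of all genes were called. The log2 fold change of Stat2 was 1.01 larger in AppSAA than in WT mice (adjusted p = 0.00014, edgeR), and that of Irf1 was 0.69 larger (adjusted p = 0.00124, edgeR).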

How the results depend on the processing

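Of 432 log2 fold changes of members recomputed under other settings, 359 kept their direction and their side of the threshold. With a mouse left out 1206 of 1260 did, 21 lost a call, 15 gained one, and the 18 that turned direction were uncalled in the full data. The pool as a block added 16 calls and removed 0.

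For AppSAA ATV:ISO against WT ATV:ISO, 2 members were called, but 4 with cells of 1000 to 25000 UMIs, 1 with limma/voom, 7 with the pool as a block and 0 to 4 with a mouse left out. For the interaction, 2 were called, 7 with the block and 2 to 4 with a mouse left out (4 without WT ATV:4D9 mouse 1 or AppSAA ATV:4D9 mouse 4). Calls within clusters went from 35 to 55 with the block. The share of all genes called went with no filter to 7.32% (AppSAA ATV:4D9 against WT ATV:4D9), 17.3% (AppSAA ATV:ISO against WT ATV:ISO) and 5.7% (interaction), and with the block to 31.4%, 51% and 30.5%. Without AppSAA ATV:4D9 mouse 3 the first of these was 7.75% (7.75% to 12.2% over all mice left out). DESeq2 called 0.007% of genes for AppSAA 4D9 against AppSAA ATV:ISO. The causes were not tested, except that leaving out the filter adds genes to the adjustment.

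On the scale of mean UMIs per cell, 19 log2 values turned from negative to positive or the reverse, and median UMIs per cell differed between the groups as given in the report. For WT ATV:4D9 against WT ATV:ISO they became 0.49 for Ifnar1, 0.71 for Ifnar2, 0.71 for Irf1, 0.49 for Irf3, 0.50 for Irf5 and 0.74 for Irf9. For AppSAA ATV:4D9 they became 0.42 for Ifnar1, 0.24 for Ifnar2, 0.30 for Irf3 and 0.33 for Irf5 against ATV:ISO, and 0.35, 0.19, 0.20 and 0.33 against 4D9. For AppSAA ATV:ISO against WT ATV:ISO they became 0.0817 for Ifnar1, 0.23 for Irf1, 0.0618 for Irf3 and 0.0676 for Irf5, and Irf5 became -0.10 for AppSAA ATV:4D9 against WT ATV:4D9. Uncalled values near 0 also turned: Irf5 in the last comparison became -0.0127 with cells of 1000 to 25000 UMIs, -0.00860 with DESeq2, -0.00233 with no filter and -0.00861 with RLE size factors, and Irf3 there became 0.00297 with cells of 1000 to 25000 UMIs. Irf1 for AppSAA ATV:ISO against WT ATV:ISO became 0.0359, 0.0141, 0.0351 and 0.0134 under the same 4 settings.

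With a mouse left out, the uncalled values that turned ran from -0.43 to 0.0592 for Ifnb1, -0.0207 to 0.0461 for Ifnar1, -0.0607 to 0.0622 for Ifnar2 and -0.10 to 0.0332 for Irf5 (AppSAA 4D9 against AppSAA ATV:ISO), from -0.0563 to 0.0366 for Irf3 and -0.0630 to 0.0656 for Irf5 (AppSAA ATV:4D9 against WT ATV:4D9), and from -0.0629 to 0.0366 for Irf1 (AppSAA ATV:ISO against WT ATV:ISO). Depth limits Ifnb1 in control mice, whose values rest on 0 to 34 UMIs.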
